A study of Homo sapiens with 3 samples.

Results

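The imprinted loci on 15q11, 14q32 and 11p15 are 3 chromosome regions in which several genes are active from the copy inherited from 1 parent only. Their members here were the intervals of a capture probe design that lay fully inside chr15:23800001-25700000, chr14:101100001-101600000 or chr11:1950001-2950000 of build hg19, and 485 of the 377858 intervals of the design met that rule: 162 on 15q11, 117 on 14q32 and 206 on 11p15. The design belonged to 3 RNA libraries of K562, an established human leukaemia cell line of erythroid and myeloid character. The libraries were biological replicates 1, 2 and 3 of 1 group, each started from 5 µg of total RNA, with ERCC spike-in RNA at 1% in replicates 1 and 2 and at 1.08% in replicate 3. They were enriched for the ends of introns in order to find branchpoints, the intron bases that take part in the first step of splicing. The interval list is shared by the 3 libraries and holds no value per library. It describes what was targeted, and how much RNA each library captured cannot be read from it.

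In an imprinted locus a differentially methylated control element, set in the germ line, decides which parental copy of the neighbouring genes is transcribed. At 15q11 the paternal copy makes SNURF and SNRPN, which encode a small peptide and a splicing protein, and then a long host RNA, SNHG14, whose introns release the SNORD116 and SNORD115 box C/D small nucleolar RNAs and whose far end runs antisense to UBE3A, a ubiquitin ligase gene. At 14q32 the paternal copy makes DLK1, a membrane protein of the Notch ligand family, and the maternal copy makes the noncoding RNAs MEG3 and MEG8, with small nucleolar RNAs and microRNAs in their introns. At 11p15 the paternal copy makes IGF2, a growth factor, and KCNQ1OT1, an RNA antisense to the potassium channel gene KCNQ1, while H19, CDKN1C and SLC22A18 are known for maternal expression. SNHG14 and MEG8 are built of many short exons, and the small RNAs are cut from the introns between them.

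The design placed a target of up to 100 nt at each end of an intron, so 2 neighbouring intervals often faced each other across 1 exon. The exons and small RNAs below show what lay between or outside such targets. Of the 152 exons of tied genes that an interval bounded on each side, 16 belonged to MEG8. These 16 exons measured 36 to 87 nt, with a median of 82.5 nt. 6 of them, of 86 or 87 nt, are shown because they are the longest. Each is named by the gap in the list where it belongs, and the capitals mark AGACCA where it occurs.
MEG8, gap chr14:101430690-101430777: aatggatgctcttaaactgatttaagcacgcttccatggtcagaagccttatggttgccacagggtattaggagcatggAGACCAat
MEG8, gap chr14:101435796-101435883: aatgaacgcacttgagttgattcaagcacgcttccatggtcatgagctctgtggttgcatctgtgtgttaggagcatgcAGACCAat
MEG8, gap chr14:101441748-101441834: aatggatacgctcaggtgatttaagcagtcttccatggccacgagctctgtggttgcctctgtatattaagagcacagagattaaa
MEG8, gap chr14:101446914-101447001: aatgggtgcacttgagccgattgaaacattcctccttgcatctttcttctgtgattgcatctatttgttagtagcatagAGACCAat
MEG8, gap chr14:101450685-101450772: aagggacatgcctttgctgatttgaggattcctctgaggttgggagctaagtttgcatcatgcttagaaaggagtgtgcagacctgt
MEG8, gap chr14:101451992-101452078: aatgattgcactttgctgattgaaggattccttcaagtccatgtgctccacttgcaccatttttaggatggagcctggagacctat

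The sequences are from the MEG8 transcripts of GENCODE release 29, 5′ to 3′ on the plus strand. In global alignments the 6 exons shared 56.2% to 79.3% of aligned positions, with a median of 65.9% over 15 pairs, and all 16 shared 32.6% to 79.3% with a median of 58.9% over 120 pairs. AGACCA, picked from these exons as the commonest run of 6 bases with ties broken by the alphabet and searched on the transcribed strand, stood in 6 of 16 MEG8 exons and in 13 of the 136 other bounded exons (9.56%). The choice was made on these exons, so the 2 shares are a description only. No identity between exons of other genes stands beside those of MEG8, so these too are a description.

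Small nucleolar RNAs of the box C/D kind guide the methylation of other RNAs and carry a C box near the 5′ end and a D box near the 3′ end. The first listed gene of 3 families of the imprinted clusters is shown, because the stretches that hold these families either scored at most 1 or had no interval at all. The capitals mark TGATGA, the core of the C box, and the last CTGA, the D box.
SNORD114-1: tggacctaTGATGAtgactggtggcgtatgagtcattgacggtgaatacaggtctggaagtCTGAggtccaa
SNORD115-1: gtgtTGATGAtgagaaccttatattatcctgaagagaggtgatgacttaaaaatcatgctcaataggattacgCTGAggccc
SNORD116-1: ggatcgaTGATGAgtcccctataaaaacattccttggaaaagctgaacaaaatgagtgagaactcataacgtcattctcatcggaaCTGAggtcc

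These are GENCODE release 29 transcripts of 72, 82 and 95 nt. On the transcribed strand TGATGA followed by CTGA stood in 22 of 30 SNORD114, 43 of 48 SNORD115 and 28 of 30 SNORD116 genes. It stood in 306 of 955 annotated small nucleolar RNA transcripts of all kinds (32.04%). The 955 were not limited to the box C/D kind, so this does not set these families apart from other box C/D RNAs.

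The list gives each interval a score, and the sources used here do not say what this whole number, never below 0, stands for. Of the 485 members, 128 (26.4%) scored above 0, where 52.8% of all intervals did. Their mean score was 3.35 and their median 0, and the mean and median over all intervals were 6.80 and 1. A score of 20 or more, the whole number nearest to the top 10% of the list, was given to 27 members (5.57%), against 9.83% of all intervals. The list is complete and has no replicates, so these values carry no error and no test.

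11p15 had the highest mean score of the 3 loci and 14q32 the lowest, and every locus lay below the rest of its own chromosome. The mean was 4.42 on 11p15, 2.94 on 15q11 and 2.03 on 14q32. Outside the loci it was 7.60 on chromosome 11, 5.50 on chromosome 15 and 4.85 on chromosome 14. On 11p15, 69 of 206 intervals (33.5%) scored above 0, with a highest score of 99. On 15q11 it was 36 of 162 (22.2%), up to 59, and on 14q32 it was 23 of 117 (19.7%), up to 61. The share above 0 in the rest of the chromosomes was 53.0% on 11, 52.9% on 15 and 51.9% on 14. Scores of 20 or more were given to 14 intervals on 11p15 (6.80%), 8 on 15q11 (4.94%) and 5 on 14q32 (4.27%). In the rest of chromosomes 11, 15 and 14 the share was 11.5%, 7.72% and 6.21%.

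**Figure D1:**
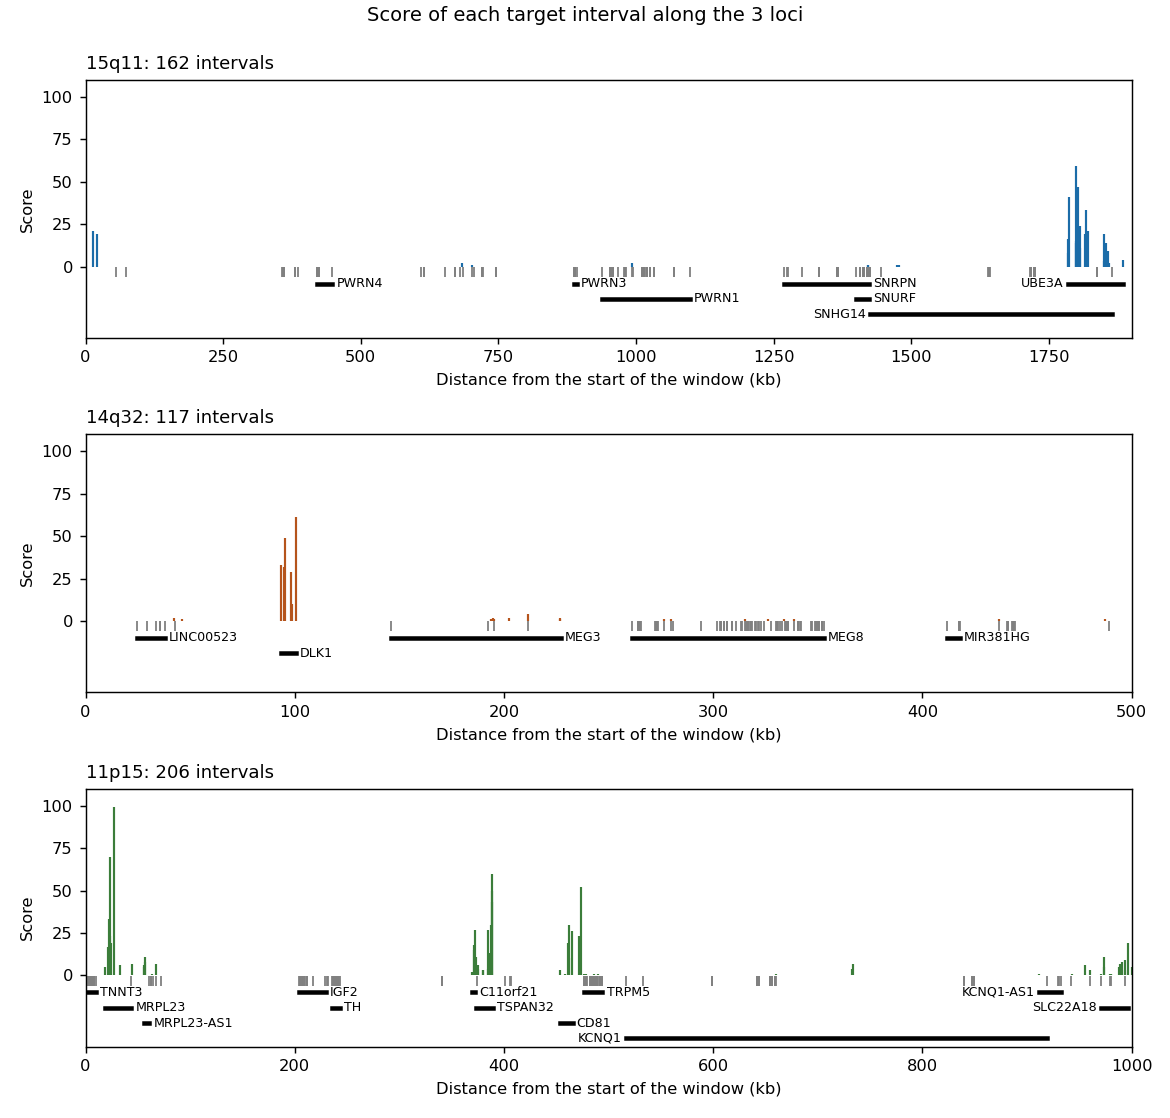
Score of each interval (vertical axis, no unit) against its distance from the start of the window in kb, for the 3 loci; bars are intervals above 0, grey ticks are intervals of score 0 and black lines are the spans of intervals tied to a gene. High scores stand in a few short stretches: UBE3A on 15q11, DLK1 on 14q32, and MRPL23, C11orf21 with TSPAN32, and CD81 on 11p15.

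Target density followed another order than score. 14q32 held 22.97 kb of target per Mb of window and 11p15 20.4 kb, which was 2.71 and 2.41 times the 8.48 kb of 15q11. From their first to their last interval, chromosomes 14, 11 and 15 held 13.4, 14.2 and 17.3 kb per Mb. Counted the same way, 14q32, 11p15 and 15q11 held 24.7, 20.4 and 8.62 kb per Mb. 15q11 was thus the only one of the 3 loci that was sparser than its chromosome. Intervals of exactly 100 nt made up 93.2% of members on 15q11, 87.2% on 14q32 and 84.5% on 11p15. The share was 87.7% over all intervals. In the rest of chromosomes 15, 14 and 11 it was 89.6%, 88.4% and 86.4%. The median gap between neighbours was 369 nt on 11p15, 578 nt on 15q11 and 689.5 nt on 14q32. The running numbers of the list had no break inside any locus. The widest member was chr14:101542671-101542869 (199 nt) on 14q32, chr15:25219605-25219788 (184 nt) on 15q11 and chr11:1955887-1956058 (172 nt) on 11p15, and each of these scored 0.

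On 15q11 the outermost members scored 21 and 4, and the nearest intervals beyond them scored 0 and 0. On 14q32 all 4 scored 0. On 11p15 the first member and its outer neighbour scored 0, and the last member scored 5 beside an outer neighbour of 2. The 11p15 window therefore ended between close neighbours, chr11:2949898-2949997 and chr11:2950025-2950124, both above 0.

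The list names no gene. Names were tied to intervals by length alone. Candidates were only the genes that the annotation places between the outer genes of each window, a limit set after the values were seen. Their intron starts and ends were slid along the interval edges of the chromosome until at least 4 edges fell within 1 nt. This tied 421 of the 485 members to 32 gene symbols, 11 on 15q11, 7 on 14q32 and 14 on 11p15, and 43 of these members were shared by more than 1 gene. The remaining 64 members had no name, and 23 of them scored above 0. 21 genes rested on 7 or more edges and 11 on 4 to 6. Ties were kept only where they landed on members, and MKRN3 and MEG9, which reached 4 edges elsewhere on their chromosome, were dropped by that restriction, made after the values were seen. Length alone can mislead for small genes: of 3420 genes from elsewhere on the 3 chromosomes, 246 reached 4 edges when forced onto a locus, with at most 6 edges. In simulated lists 34 of 36 genes were placed correctly and 2 got no call. The 32 tied symbols had 33 annotated entries, each slid separately. All 33 lay within 2 nt of the commonest shift of their locus. Genes that share intervals were not independent in this, and only ties that landed on members were counted. The genes H19, INS, CDKN1C, TSSC4, ASCL2, PHLDA2, RTL1, MKRN3 and MEG9 were not tied, and KCNQ1OT1 was not given a value.

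Few genes carried most of the score. 6 of the 32 genes had a mean above that of all intervals, namely DLK1, MRPL23, TSPAN32, UBE3A, C11orf21 and CD81, and all 6 encode proteins. 13 genes had only intervals of score 0, and 23 had a median of 0. Of the 27 members at 20 or more, 24 were tied: 7 to UBE3A, 5 to DLK1, 5 to TSPAN32, 4 to MRPL23, 2 to CD81 and 1 to C11orf21. The 3 without a name were chr15:23814343-23814442 (score 21), chr11:2422030-2422129 (score 23) and chr11:2423682-2423840 (score 52).

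**Figure D2:**
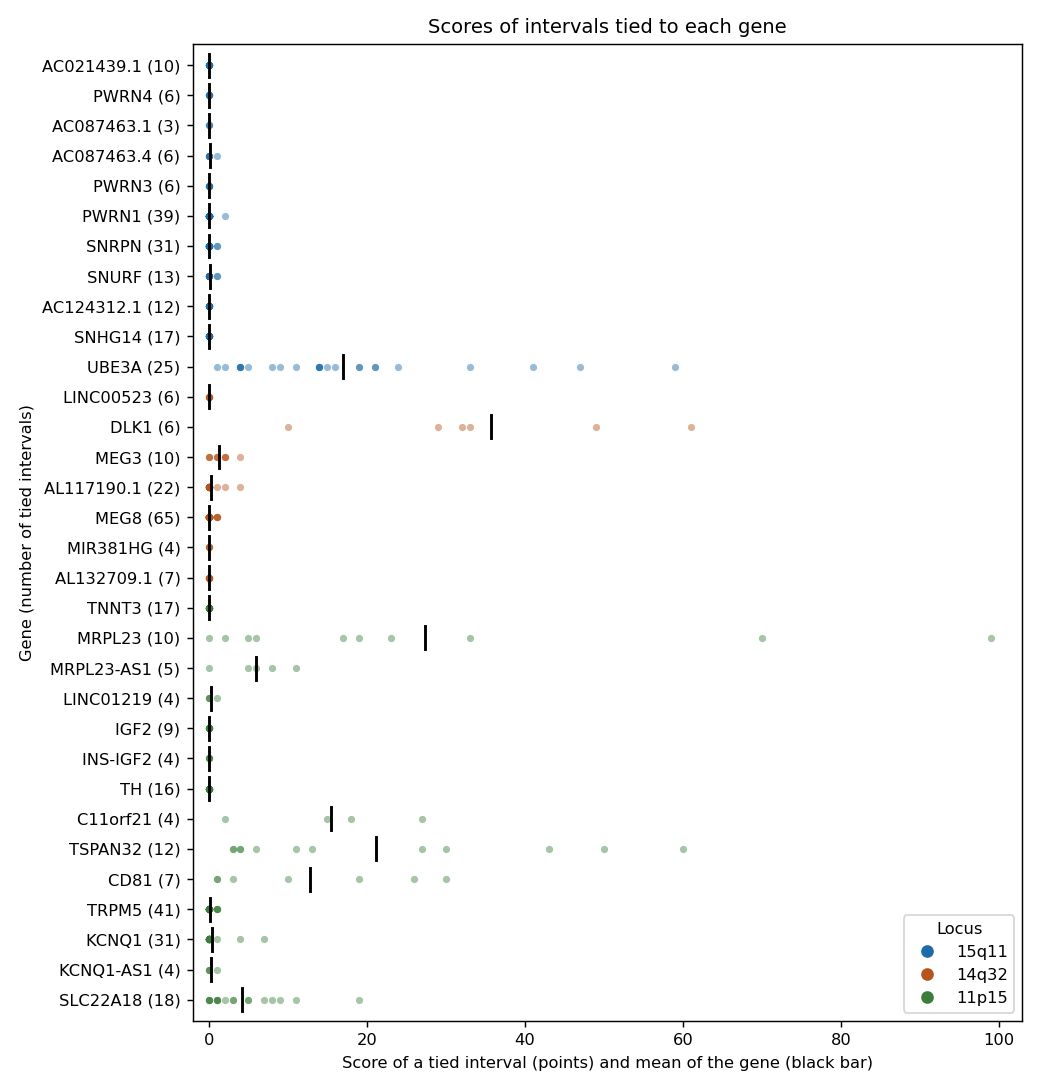
Score of every interval tied to each of the 32 genes (points, coloured by locus; horizontal axis, no unit) with the gene's mean as a black bar and the number of its intervals in parentheses. DLK1 and MRPL23 have the highest means, 35.7 and 27.4, and 23 genes have a median of 0.

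At 15q11 the score stood almost entirely in UBE3A. Its 25 intervals, chr15:25584405-25683634, all scored above 0, from 1 to 59 with a median of 14 and a mean of 16.9. They held 88.7% of the summed score of the locus. The other 137 intervals had a mean of 0.394, and 11 of them scored above 0. Of the summed score of 54 outside UBE3A, 40 stood in 2 unnamed intervals at the start of the window, chr15:23814343-23814442 (score 21) and chr15:23820393-23820492 (19). The 3 highest members of the locus were all in this gene: chr15:25599574-25599673 (score 59), chr15:25602044-25602143 (47) and chr15:25585376-25585475 (41).

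Within UBE3A the scores fell into a high and a low stretch, on each side of a pair of intervals tied to SNHG14. UBE3A lies on the minus strand, so the lower coordinates are the 3′ part of the gene. The 15 intervals of chr15:25584405-25621010 scored 8 to 59, with a mean of 23.8 and a median of 19. The 10 intervals of chr15:25650507-25683634, toward the 5′ end, scored 1 to 19, with a mean of 6.60 and a median of 4. The ranges overlap between 8 and 19, and the division was drawn after the scores were seen. Exons of SNHG14, the antisense host RNA, reach into the same sequence. All 3 SNHG14 intervals within the stretch scored 0, and 2 unnamed intervals there scored 3 and 2. By the annotation 24 of the 25 UBE3A intervals lie within the span of SNHG14.

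**Figure D3:**
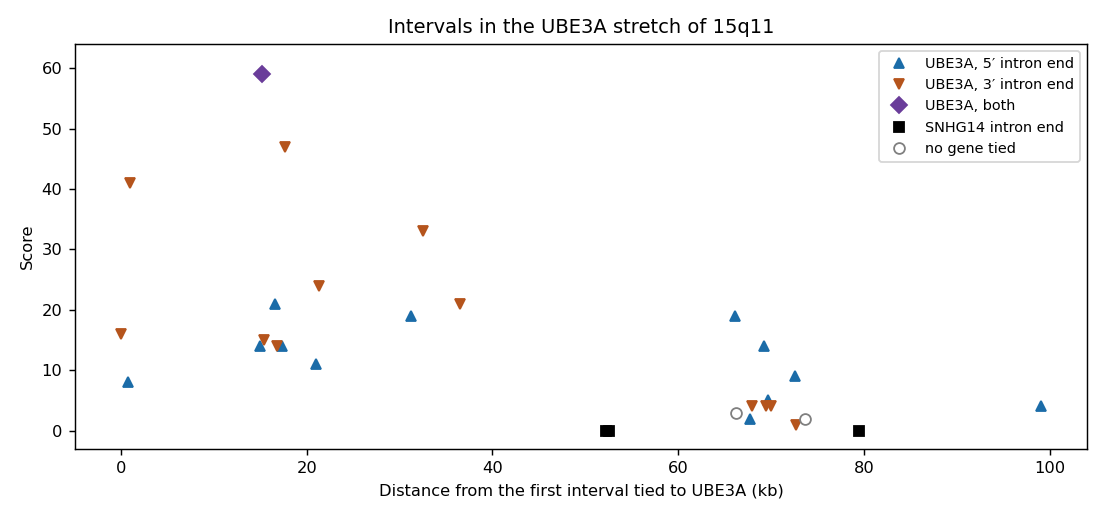
Score (vertical axis, no unit) of the 30 intervals in the UBE3A stretch against distance in kb from the first interval tied to UBE3A; triangles and the diamond are UBE3A intron ends, squares SNHG14 intron ends and open circles intervals with no tied gene. The 15 UBE3A intervals on the left score 8 to 59, the 10 on the right 1 to 19, and the 3 SNHG14 intervals score 0.

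The tied paternally expressed genes of 15q11, SNRPN, SNURF and SNHG14, scored near 0. SNRPN, with 31 intervals, had 2 above 0, each with a score of 1, and these 2 are shared with SNURF, whose 13 intervals all lie within the span of SNRPN. They are chr15:25220405-25220504 and chr15:25220658-25220757. All 17 SNHG14 intervals scored 0, and only 17 of the 284 annotated intron edges of this host RNA met an interval edge, the lowest share of any tied gene (5.99%). AC124312.1, an annotated gene that runs from SNURF into SNHG14 and was named after its placement was seen, scored 0 in all 12 intervals.

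The SNHG14 edges without an interval lay in long empty stretches. No interval was listed in chr15:25276964-25438839 (161.876 kb) or in chr15:25442529-25514881 (72.353 kb). Between the tied neighbours of the first stretch the annotation holds 30 SNORD116 and 13 SNORD115 genes and 152 SNHG14 intron edges. Between those of the second it holds 33 SNORD115 genes and 108 edges. SNORD116-1 and SNORD115-1, printed above, belong to families that are thus mostly outside the targets. The 2 unnamed intervals just before the first stretch, chr15:25273080-25273179 and chr15:25276864-25276963, scored 1 each.

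The noncoding Prader-Willi region transcripts upstream of SNRPN were also at or near 0. PWRN1 had 39 intervals, of which 1 scored above 0, with a score of 2. PWRN3 and PWRN4, with 6 intervals each, scored 0 throughout. So did AC021439.1 with 10 intervals and AC087463.1 with 3, and AC087463.4 had a single score of 1 among 6. These last 3 genes were named after their placement was seen. The longest empty stretch of the 3 loci, 284.767 kb at chr15:23872913-24157679, lies before them.

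Joining members less than 20 kb apart divided 15q11 into 22 sub-blocks, of which 9 had at least 5 members. 5 of the 9 scored 0 throughout: 7 intervals of AC021439.1, 5 of PWRN4, 6 of PWRN3, 6 of SNRPN and 7 of SNHG14. The SNRPN sub-block, chr15:25165058-25166503, was the densest in the 3 loci, with 415 kb of target per Mb and no score above 0. The block of AC087463.1 and AC087463.4 had 12 intervals and a mean of 0.25, the PWRN1 block 38 and 0.053, and the block of SNRPN, SNURF, AC124312.1 and SNHG14 23 and 0.087. The UBE3A block had 30 intervals, a mean of 14.3 and a density of 30.2 kb per Mb. High density and high score did not go together here: the UBE3A block ranked eighth of the 9 in density and first in score.

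At 14q32 the score stood in DLK1. Its 6 intervals, chr14:101193474-101200485, scored 33, 32, 49, 29, 10 and 61 in genomic order. Their mean of 35.7 was the highest of any tied gene, and they held 89.9% of the summed score of the locus. The other 111 intervals had a mean of 0.216 and a highest score of 4, below the lowest of DLK1. DLK1 was set apart after the scores were seen, so this separation is a description only. The 3 highest members of the locus, 61 at chr14:101200386-101200485, 49 at chr14:101195173-101195272 and 33 at chr14:101193474-101193573, were all in DLK1. Its tie rests on 6 of 14 annotated edges.

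The maternally expressed RNAs of 14q32 had many targets and low scores. MEG3, a long noncoding RNA, had 10 intervals that scored 0, 0, 1, 2, 1, 0, 2, 4, 1 and 2, so 7 of 10 were above 0 and none exceeded 4. Only 10 of the 50 annotated MEG3 edges met an interval. MEG8 had 65 tied intervals, the most of any gene, and 4 of them scored 1 while 61 scored 0. The MEG8 stretch, chr14:101361378-101452955, held 75 intervals in all, with 6 above 0 and none above 1. By the annotation it carries 9 SNORD113 and 24 SNORD114 genes.

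The spacing of the MEG8 targets followed the short exons printed above. Of the 74 gaps between neighbouring intervals in this stretch, 21 (28.4%) measured 61 to 90 nt, where 7.32% of gaps in the whole list did. Of the 16 MEG8 exons bounded on each side, 15 had a gap exactly 1 nt longer than the exon. Of the intervals that bound these exons, 1 scored 1 and the others 0.

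**Figure D4:**
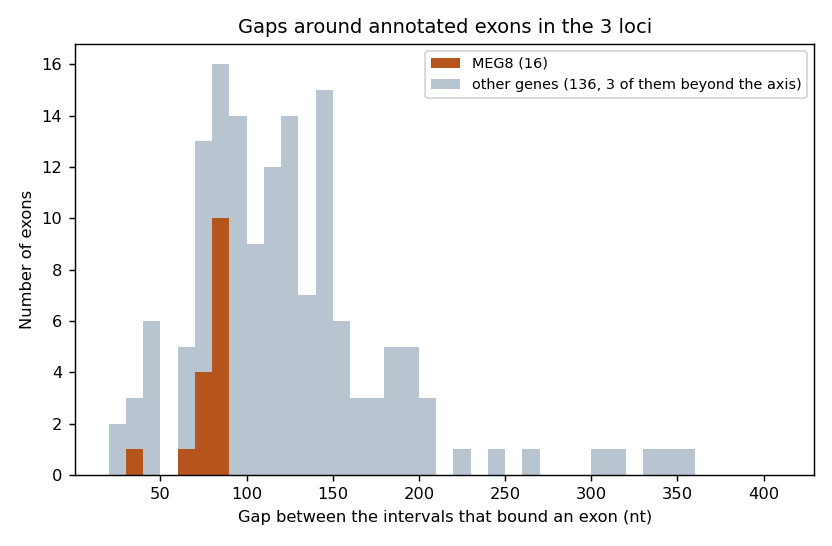
Number of exons (vertical axis, MEG8 and other genes stacked) by the gap in nt between the 2 intervals that bound them, in bins of 10 nt, for 152 exons of tied genes in the 3 loci. The 16 MEG8 exons crowd into a narrow range below 90 nt, while the other 136 spread wider.

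Other noncoding genes of 14q32 were at or close to 0. LINC00523 (6 intervals), MIR381HG, a microRNA host (4), and AL132709.1 (7) scored 0 throughout. AL117190.1, an annotated transcript that shares intervals with MEG3 and MEG8, had 22 intervals and 3 scores above 0, and 2 of these are the MEG3 intervals of score 2 and 4. LINC00523, AL117190.1 and AL132709.1 were named after their placement was seen. The largest empty stretch, chr14:101452956-101511522 (58.567 kb), lies between MEG8 and MIR381HG, where the annotation has 6 SNORD114 and 21 microRNA genes.

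14q32 formed 7 sub-blocks, and all 5 with at least 5 members had some score above 0. The DLK1 block had a mean of 35.7 over 6 intervals and the highest density of the 5, 85.6 kb per Mb. The MEG8 block had a mean of 0.08 over 75 intervals at 79.6 kb per Mb. The blocks of MEG3 (10 intervals, mean 1.30), LINC00523 with unnamed neighbours (9, 0.333) and MIR381HG with AL132709.1 (14, 0.071) lay between 31.3 and 41.8 kb per Mb. The DLK1 and MEG8 blocks, of nearly equal density, thus had the highest and nearly the lowest mean.

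At 11p15 the score was spread over more genes, and the highest were not on the list of imprinted genes. MRPL23, which encodes a protein of the mitochondrial ribosome, had 10 intervals that scored 5, 17, 33, 2, 70, 23, 19, 99, 6 and 0 in genomic order, with a mean of 27.4. The 99 at chr11:1977386-1977485 was the highest score of all 485 members, and the 70 at chr11:1973257-1973356 the next. MRPL23, C11orf21, TSPAN32 and CD81, which lie in 3 separate sub-blocks with IGF2 and TH between the first and the others, together held 74.7% of the summed score of the locus in 33 intervals. The other 173 had a mean of 1.33.

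TSPAN32 and CD81 encode tetraspanins, membrane proteins that organise surface complexes, and CD81 is found on many blood cells. The 12 TSPAN32 intervals scored 3 to 60 with a median of 12 and a mean of 21.2. The first 6 in genomic order scored 11, 4, 6, 3, 3 and 4, and the last 6 scored 27, 13, 30, 50, 43 and 60, so the part toward the 3′ end was higher without overlap, a division drawn after the scores were seen. C11orf21, on the opposite strand beside it, had 4 intervals of 2, 15, 18 and 27. The 7 CD81 intervals scored 3, 1, 1, 19, 30, 10 and 26, with a mean of 12.9. The unnamed intervals of score 23 and 52 lie between the last CD81 interval and the first TRPM5 interval.

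The imprinted growth factor region stood in contrast. IGF2 (9 intervals), INS-IGF2, a readthrough of the insulin gene and IGF2 (4), and TH, which encodes tyrosine hydroxylase (16), scored 0 in every interval. Their sub-block, chr11:2154454-2192914, held 31 intervals of score 0 at a density of 80.1 kb per Mb. It was the largest sub-block without any score above 0 in the 3 loci. TNNT3, a skeletal muscle troponin gene at the start of the window, scored 0 in all 17 intervals. The next tied gene along the chromosome is MRPL23.

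KCNQ1 had 31 intervals over 402.281 kb, and 3 scored above 0. The 2 highest, chr11:2683091-2683190 with a score of 4 and chr11:2683313-2683412 with 7, are the only ones that the annotation places within KCNQ1OT1, the antisense RNA. The other 29 scored at most 1, with a single 1 at chr11:2610086-2610185. The list gives every interval a plus sign, so the 2 strands cannot be told apart, and which RNA these scores refer to was not tested. KCNQ1-AS1 had 4 intervals with 1 score of 1. TRPM5, an ion channel gene of taste cells, had 41 intervals, of which 4 scored 1 and the others 0.

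SLC22A18, a transporter gene of the maternally expressed group, was the only one of the tied imprinted genes of 11p15, which were IGF2, KCNQ1 and SLC22A18, with scores along its length. In SLC22A18, 14 of 18 intervals scored above 0, with a highest score of 19 and a median of 2.5. Its mean was 4.22, below the mean of all intervals. Unnamed intervals between tied genes also scored above 0, such as chr11:2017422-2017516 (7), chr11:2905146-2905228 (6) and chr11:2910437-2910536 (3). Imprinted genes that were not tied, such as H19 and CDKN1C, have no value here. Whether any of these unnamed intervals belongs to them was not tested. MRPL23-AS1, a noncoding RNA between MRPL23 and the H19 region, had 5 intervals that scored 5, 6, 11, 8 and 0. It had the highest mean of the noncoding genes, 6.00. LINC01219 beside it had 1 score of 1 among 4.

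11p15 formed 11 sub-blocks, 7 with at least 5 members. The means were 15.1 for C11orf21 and TSPAN32 (21 intervals), 7.78 for TNNT3, MRPL23 and MRPL23-AS1 (41), 3.31 for CD81 and TRPM5 (51) and 3.10 for the end of KCNQ1 with SLC22A18 (30). The 16 KCNQ1 intervals of chr11:2591758-2610185 had a mean of 0.063, and the 8 of chr11:2789974-2799368 scored 0, as did the IGF2 and TH block. The CD81 and TRPM5 block was the densest, at 128.7 kb per Mb. Of its summed score of 169, CD81 held 90, the unnamed intervals between CD81 and TRPM5 held 23 and 52, and TRPM5 held 4. In all, 38 of its 51 intervals scored 0.

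Genes were also set side by side by parental expression, with lists written after the values had been seen. The lists give what is known of the genes in general. Which copy of any of them, UBE3A included, was active in K562 was not tested. Of 12 genes known for paternal expression 5 were tied, and their 64 intervals had a mean of 3.38 with 12.5% above 0. Without DLK1 the tied members of that list were SNRPN, SNURF, SNHG14 and IGF2, in which only 2 intervals, shared by SNRPN and SNURF, scored above 0. Of 9 genes known for maternal expression 5 were tied, and their 149 intervals had a mean of 3.54 with 35.6% above 0, led by UBE3A. Without UBE3A the mean of the other 124 was 0.847. Of 8 neighbours written down as on neither list 7 were tied, all of them protein coding genes of 11p15. Their 107 intervals had a mean of 6.39 with 33.6% above 0. Without MRPL23, C11orf21, TSPAN32 and CD81 the mean of the other 74 was 0.054. All 3 values lie below the 6.80 and the 52.8% of the whole list, and each list holds genes of mean 0 or near 0 beside 1 or more of the leading genes. Other tied genes, such as PWRN1 (mean 0.051) and MRPL23-AS1 (mean 6.00), were on none of the 3 lists and were not counted.

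Protein coding and noncoding genes lay farther apart. The 16 protein coding genes had 232 intervals with a mean of 6.08 and 37.1% above 0, and 6 of the genes had a score of 20 or more. The 16 noncoding genes had 192 intervals with a mean of 0.271 and 9.90% above 0, and no score of 20 or more. Without the 6 genes whose mean lay above that of all intervals, the other 10 coding genes had 168 intervals with a mean of 0.560 and 13.7% above 0, so most of the distance rested on those 6. Some intervals are shared by a coding and a noncoding gene, and 5 of the 16 coding genes scored 0 throughout. Neither division was tested, since members of 1 gene share their source.

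The tied introns allowed their 2 ends to be compared. At the 5′ end, 205 intervals had a mean of 2.41, and at the 3′ end, where branchpoints lie, 197 had a mean of 4.45. The medians were 0 at each end. Of 207 introns with a separate interval at each end, 64 had a score above 0 at either, and the 3′ end was higher in 37, the 5′ end in 24 and neither in 3. The median over these 64 was 4 at each end. The largest differences had the higher score at the 3′ end. In MRPL23 an intron of 1105 nt scored 2 at its 5′ end and 70 at its 3′ end. In DLK1 an intron of 1965 nt scored 10 and 61. In UBE3A an intron of 1465 nt scored 21 and 59, the latter in an interval that also meets the 5′ end of another intron. Introns of 1 gene share intervals, so the 64 rest on 107 distinct intervals, and the comparison was made after the values were seen.

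**Figure D5:**
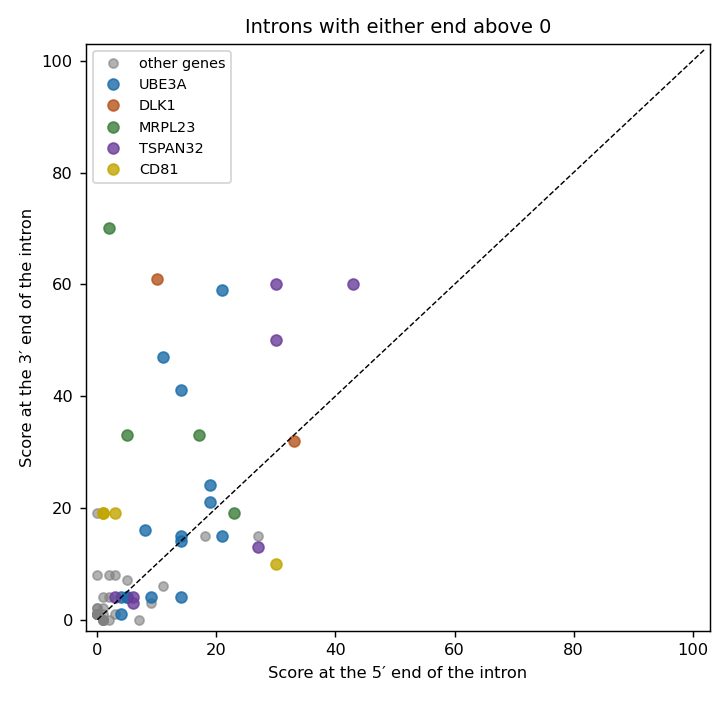
Score at the 3′ end against score at the 5′ end (no units) for tied introns with a separate interval at each end and a score above 0 at either; the dashed line marks equal scores. The points farthest from the line, such as 2 and 70 in MRPL23, lie above it, while 24 of the 64 introns lie below.

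Interval edges met the annotated introns with a fixed inset. Relative to the 3′ edge, where all 216 matched edges fell on the commonest placement of their gene, 204 of 224 matched 5′ edges (91.1%) lay 1 nt inside the intron. It was 148 of 159 on the plus strand and 56 of 65 on the minus strand, so the inset followed transcription and not the chromosome. The gap across a bounded exon was the exon length plus 1 nt in 141 of 152 cases and the exon length itself in 11. Lengths alone do not tell at which end of the intron the extra base was left out.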

How the data were processed

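CaptureSeq probes were designed, per the labels' protocols, against the 100 nt at each end of introns of GENCODE release 12, without exons, sequence highly transcribed in public K562 RNA-seq, or repeats. The deposited file lists hg19 intervals with a whole-number score of unstated meaning and normalisation. It was treated as an unspecified score, so no count model was used, and the depth of the libraries was not analysed here. Bowtie2, TopHat2 and bedtools appear in the submitters' processing notes, with no role given.

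Members were selected by position, and mean, share above 0, density and sub-blocks (20 kb gap) were computed for each locus. The labels put 3 libraries in 1 group with no value per library, so no test was made. Gene names came from sliding GENCODE release 29 intron lengths along interval edges (tolerance 1 nt, at least 4 edges, next best placement lower), with no conversion of coordinates, and the procedure was checked on simulated data. Candidates were limited to genes in annotation order between the window's outer genes, and ties to members, after the values were seen. Named regions were the 3 highest scoring and 3 widest members of each locus and all sub-blocks of 5 or more members. Genes were those of written lists that could be tied, and 7 others are marked in the text. The closing section gives the alternatives. The members and lists were chosen with earlier results of these data known, and the threshold of 20, the division of UBE3A, the intron end comparison, the parental lists and the sequences were chosen after the values were seen. Python 3.11.15, numpy 2.4.6, pandas 2.3.3, Biopython 1.88 and matplotlib 3.10.9 were used.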

Additional observations from a re-analysis of the deposited data

How the results depend on the processing

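The number of members did not change when any overlap with the window was enough. Density over the span from first to last member stayed within 1.5 times, and counted as intervals per Mb it was 85.3 on 15q11, 234 on 14q32 and 206 on 11p15, in the same order. Mean scores moved little with weighting by length or with full-width intervals only. The median was 0 on all 3 loci, and without intervals of score 0 the mean was 13.25 on 15q11, 10.3 on 14q32 and 13.2 on 11p15, which put 15q11 and 11p15 side by side. A score of 2 or more was given to 18.5% on 15q11, 9.40% on 14q32 and 25.7% on 11p15, against 44.0% of all intervals. Sub-blocks numbered 35 and 19 on 15q11 and 11p15 with a 10 kb gap, and 8, 2 and 7 on 15q11, 14q32 and 11p15 with a 50 kb gap. The count of 6 genes above the mean of all intervals held under both edge rules. With both edges required, the mean of 31 of 32 genes stayed within 1.5 times and that of AL117190.1 fell from 0.318 to 0.143. C11orf21 went from 15.5 to 11.7, and to 12.6 with a tolerance of 2 nt, where 31 genes stayed within 1.5 times and INS-IGF2 lost its tie. No paired analysis was possible because the list holds no value per library, and for the same reason no library could be left out. The list limits what can be said: the score has no stated meaning or depth, gene names rest on lengths from a later annotation, and 64 members have none.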
